A study of Mus musculus with 9 samples.

Results

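The endoplasmic reticulum (ER) stress genes described here are Hspa5, Hsp90b1, Calr, Pdia4, Dnajb9, Herpud1, Xbp1, Atf4, Ddit3 and Trib3, chosen as a list of known genes of the unfolded protein response and not by their values. Earlier results of these data were, however, known when the list was chosen. The genes are 10 of the 37074 gene names on the liver arrays and are represented by 18 of 56605 probe names. Liver total RNA of male mice was measured in 3 samples of each of 3 groups, each on its own Agilent array with a single dye. The AAV-V group received an adeno-associated virus (AAV) vector control and a normal diet, the AAV-GP73 group received AAV carrying GP73 (a Golgi membrane protein encoded by Golm1) and a normal diet, and the AAV-V HFD group received the vector control and a high-fat diet (HFD). Per the study's methods the mice were C57BL/6N, and the virus was directed to hepatocytes and injected into the tail vein. All samples are labelled as 12 months old, where the study counts 12 months from injection. Neither source says whether mice were pooled, so that p-values measure only the spread between these samples. Golm1 had 1 probe, well above background on 0 of 9 arrays, so that the AAV-GP73 label could not be checked by this gene.

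The unfolded protein response adjusts the folding capacity of the ER to its load of client proteins, which is heavy in hepatocytes because they secrete most plasma proteins. In its ATF6 and IRE1-XBP1 arms, transcription factors raise ER chaperones such as BiP (Hspa5), GRP94 (Hsp90b1) and calreticulin (Calr) and components of ER-associated degradation (ERAD), by which misfolded proteins are returned to the cytosol. In the PERK arm, phosphorylation of eIF2α lowers general translation while ATF4 is translated more, and ATF4 in turn raises amino acid and stress genes, CHOP (Ddit3) and Trib3. Several of these steps, the splicing of Xbp1 mRNA, the cleavage of ATF6 and the translation of ATF4, lie beyond what a probe for total mRNA measures.

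The promoters of 4 of the genes with a probe tested below are shown because they hold an ER stress response element or a related one, so that they can be set side by side. The ER stress response element (ERSE, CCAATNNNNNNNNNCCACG), searched on both strands in the window from 250 bases before to 50 bases after the transcript start, was found in 3 of the 10 genes (Hspa5, Hsp90b1 and Calr) and in 0.119% of 32851 mouse promoters of the same length. The related ERSE-II (ATTGGNCCACG) was found in Herpud1 alone of the 10 genes and in 0.0365% of all promoters. Sequences are from RefSeq, build GRCm38.p6, and all 10 genes matched a promoter. They are written 5′ to 3′ on the strand of the gene and end at the base before the transcript start, with the fixed letters of the elements in capitals.
Hspa5, chr2:34771840-34772089, + strand: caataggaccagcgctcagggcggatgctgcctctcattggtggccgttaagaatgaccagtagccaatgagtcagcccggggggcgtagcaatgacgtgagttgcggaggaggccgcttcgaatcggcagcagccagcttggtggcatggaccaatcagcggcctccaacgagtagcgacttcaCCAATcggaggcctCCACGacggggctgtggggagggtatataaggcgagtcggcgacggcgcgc
Hsp90b1, chr10:86705445-86705694, - strand: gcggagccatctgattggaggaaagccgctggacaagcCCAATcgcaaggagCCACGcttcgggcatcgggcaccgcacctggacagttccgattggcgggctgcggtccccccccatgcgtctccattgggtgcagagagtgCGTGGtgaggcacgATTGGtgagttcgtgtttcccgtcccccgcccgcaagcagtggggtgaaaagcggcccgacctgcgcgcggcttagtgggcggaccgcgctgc
Calr, chr8:84846932-84847181, - strand: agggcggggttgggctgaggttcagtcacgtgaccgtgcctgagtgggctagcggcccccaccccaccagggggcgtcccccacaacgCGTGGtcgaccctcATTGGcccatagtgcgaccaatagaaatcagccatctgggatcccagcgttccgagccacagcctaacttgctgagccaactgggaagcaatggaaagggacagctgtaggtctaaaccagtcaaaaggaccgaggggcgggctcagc
Herpud1, chr8:94386179-94386428, + strand: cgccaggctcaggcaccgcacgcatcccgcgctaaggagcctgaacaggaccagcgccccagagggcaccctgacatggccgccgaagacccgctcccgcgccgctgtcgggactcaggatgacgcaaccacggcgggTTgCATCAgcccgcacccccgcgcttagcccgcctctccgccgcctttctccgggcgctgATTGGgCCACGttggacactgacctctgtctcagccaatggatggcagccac

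In Hspa5 the element covered bases -65 to -47 relative to the transcript start. Hsp90b1 held 2 copies, from -212 to -194 and, on the opposite strand, from -107 to -89, and the copy of Calr lay on the opposite strand from -162 to -144. In Herpud1, ERSE-II covered bases -52 to -42, and the capitals further upstream, from -112 to -105 on the opposite strand, mark a match to TGATGNAA, a form of the amino acid response element bound by ATF4 that 3.97% of all promoters hold. The same letters were found in Trib3 but not in the other 8 genes, and the XBP1 element TGACGTGG, held by 0.676% of all promoters, was found in 0 of the 10 windows. A match is a stretch of letters and not a measured binding site.

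Signal well above background, as marked by the scanner software, limited what could be measured. Of the 18 probes, 8 probes of 6 genes were well above background throughout 1 group or more and were tested, namely Hspa5 with 3 probes and Hsp90b1, Calr, Herpud1, Xbp1 and Atf4 with 1 each. The other 10 probes were not tested, and Pdia4, Dnajb9, Ddit3 and Trib3 had no tested probe. Herpud1 was tested because of the AAV-GP73 and AAV-V HFD arrays alone, since every AAV-V array was under that limit. The AAV-V arrays were dimmer than the others. The median processed signal of the 2667 probes detected on all 9 arrays was 33.1 to 38.7 on AAV-V, 104 to 129 on AAV-GP73 and 76.4 to 124 on AAV-V HFD arrays, and between 10.2% and 18.4% of all spots were well above background. AAV-V shared a slide with AAV-GP73, whereas AAV-V HFD had a slide of its own, so that slide and diet cannot be told apart. By a digit of the array barcode, read here as the slide column, AAV-V and AAV-GP73 lay in separate columns. Slide column and GP73 therefore cannot be told apart either. The 9 hepatocyte markers on the arrays were all detected on every AAV-V and AAV-GP73 array, and 8 of 9 on every AAV-V HFD array. In bulk liver, fewer cells of a type and less RNA per cell cannot be told apart.

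**Figure D1:**
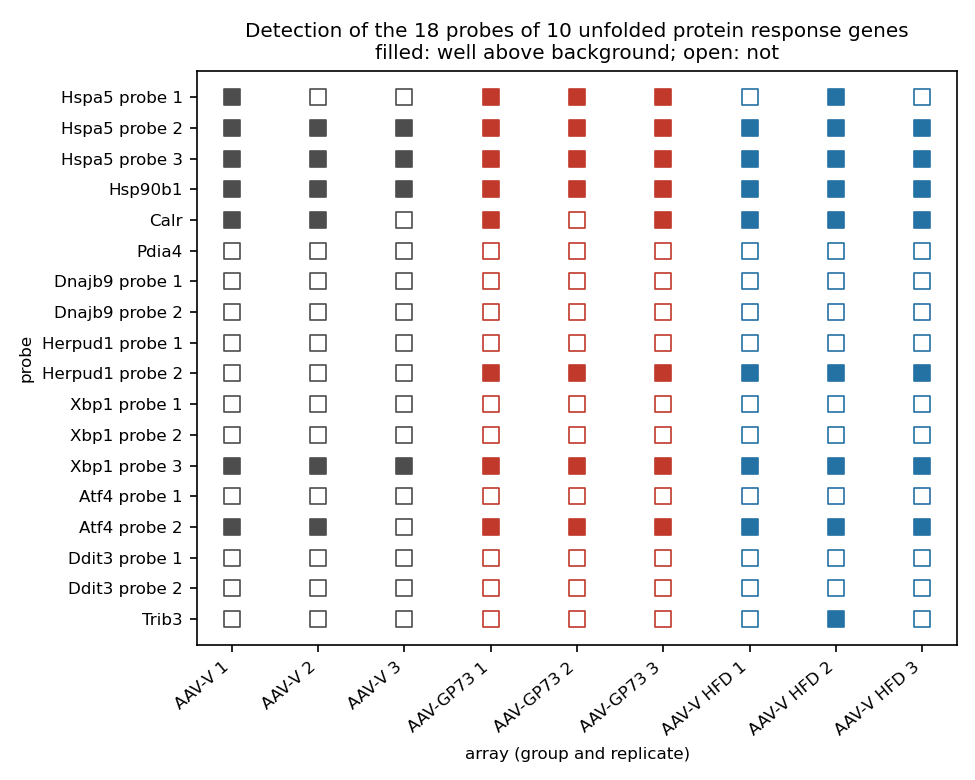
Detection of the 18 probes (rows) on the 9 arrays (columns), coloured by group. A filled square is a spot well above background and an open square is one that was not. 4 probes were detected on all 9 arrays, and all probes of Pdia4, Dnajb9 and Ddit3 are open throughout.

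Levels below are log2 processed signals, with arrays levelled at the 75th percentile of the 2667 probes detected everywhere. Differences are between group means on that log2 scale, with the standard error (SE) and the Benjamini-Hochberg adjusted p of limma over all 6593 probes tested, and a call needed both a 2-fold change, as fitted, and an adjusted p under 0.05. In AAV-GP73 livers, Atf4 was 1.91 higher than in AAV-V livers and Hsp90b1 fell by 1.16, and these were the 2 of 8 probes called. The background was high in this comparison, with 51.8% of all probes called, 33.9% higher and 17.9% lower. In AAV-V HFD livers, Atf4 and Herpud1 were higher and Hsp90b1 was lower than in AAV-V livers, 3 of 8 probes, against 42.0% of all probes called, 25.0% higher and 16.9% lower. The 3 probes of Hspa5 and those of Calr and Xbp1 were not called in either comparison. The shares of called probes were 25.0% and 37.5%, and with 8 probes, 3 of them of 1 transcript, a difference from the background was not tested. With arrays levelled at the 75th percentile of all probes, 4 of 8 were called in each comparison, beside 4726 (AAV-GP73) and 3935 (AAV-V HFD) of all 6593 probes. Both comparisons share the AAV-V arrays. The median difference of the 8 probes was 0.36 with GP73 and 0.14 on the high-fat diet, where the median of all probes tested was 0.64 and 0.41. These medians cover unlike mixes, since 39.7% of all probes tested but 12.5% of the 8 were undetected throughout AAV-V. Among probes detected on all 9 arrays, the 4 of these genes had medians of 0.03 and -0.07, against -0.11 and -0.26 for all such probes.

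**Figure D2:**
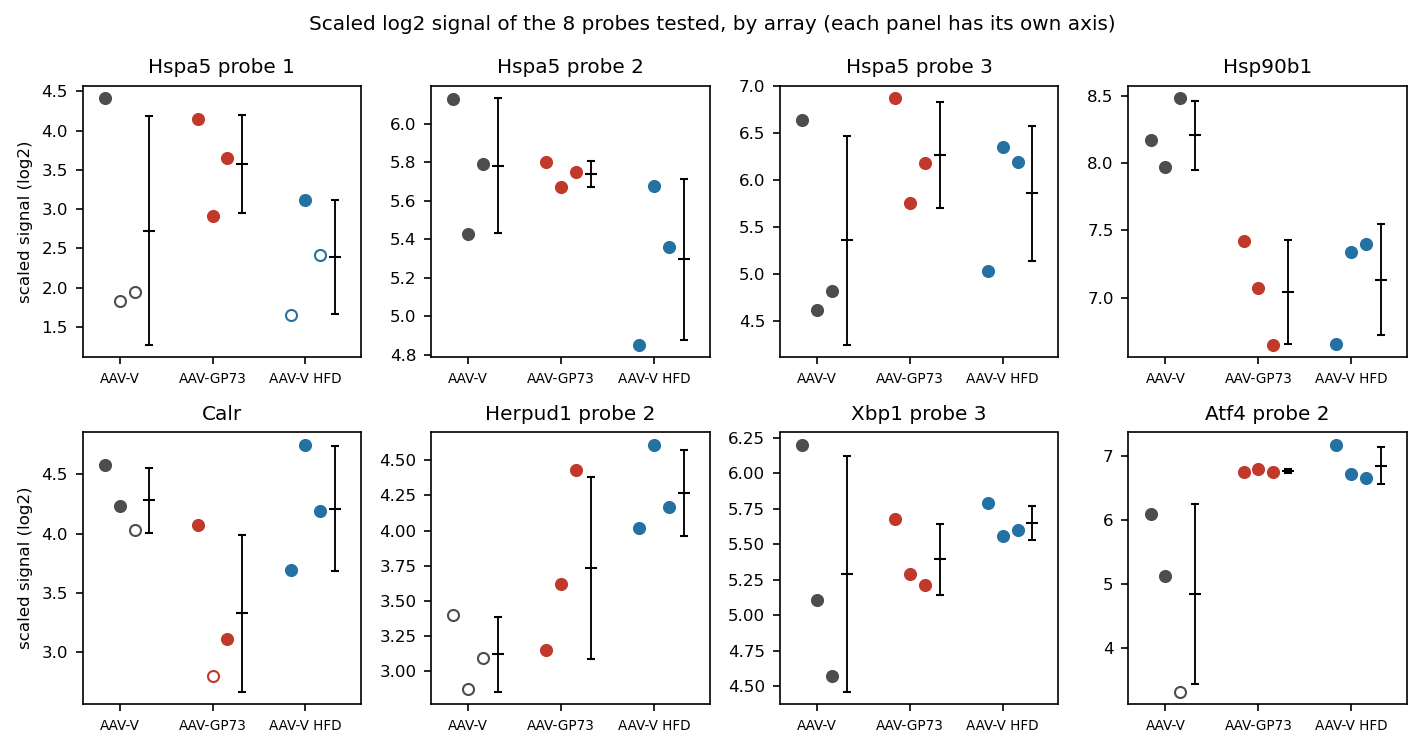
Scaled log2 signal of the 8 probes tested on each array, with replicates 1 to 3 from left to right in each group. Filled points were well above background and open points were not, and the bar gives the mean ± SD of the 3 arrays. Points of AAV-GP73 and of AAV-V HFD lie above all AAV-V points for Atf4 and below all of them for Hsp90b1. Of all probes, 45.7% and 34.6% lay wholly above AAV-V in AAV-GP73 and AAV-V HFD, and 21.4% and 21.6% wholly below.

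Hspa5 encodes BiP, the Hsp70 chaperone of the ER lumen that also holds the stress sensors inactive. Its probe 2 (chr2:34631136-34631195 of mm9) lay at base 1702 of the transcript and was detected on all 9 arrays. It measured 6.13, 5.43 and 5.79 in AAV-V, 5.80, 5.67 and 5.75 in AAV-GP73 and 4.85, 5.68 and 5.36 in AAV-V HFD. All 3 groups overlapped, and the differences from AAV-V were -0.04 (SE 0.298, adjusted p = 0.905) for AAV-GP73 and -0.49 (SE 0.298, adjusted p = 0.186) for AAV-V HFD. Probe 3 (chr2:34631913-34631972, transcript base 2479), also detected on all arrays, measured 6.64, 4.61 and 4.82 in AAV-V, 6.87, 5.75 and 6.18 in AAV-GP73 and 5.03, 6.35 and 6.19 in AAV-V HFD. Here AAV-V replicate 1 stood above the other AAV-V arrays, and the differences were 0.91 (SE 0.538, adjusted p = 0.156) and 0.50 (SE 0.538, adjusted p = 0.446). Probe 1 (chr2:34630699-34631075, a span of 377 bases, transcript base 1582) was detected on 1 AAV-V, 3 AAV-GP73 and 1 AAV-V HFD array. It measured 4.41, 1.83 and 1.94 in AAV-V, 4.15, 2.91 and 3.65 in AAV-GP73 and 1.65, 3.11 and 2.41 in AAV-V HFD. Again AAV-V replicate 1 was the high one. Without it, probe 3 was called higher in AAV-GP73 (1.56, adjusted p = 0.0124), whereas probe 2 gave 0.13 (adjusted p = 0.737). Probe 1 was then called too, but against 2 AAV-V arrays that were not well above background, so that its size is not given.

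Hsp90b1 encodes GRP94, the Hsp90 chaperone of the ER. Its probe (chr10:86153693-86153752 of mm9, minus strand) measured 8.17, 7.97 and 8.48 in AAV-V, 7.42, 7.07 and 6.65 in AAV-GP73 and 6.66, 7.34 and 7.40 in AAV-V HFD. Both groups lay wholly below AAV-V, as for 21.4% (AAV-GP73) and 21.6% (AAV-V HFD) of all probes. The fall of Hsp90b1 was 1.16 (SE 0.314, adjusted p = 0.0074) and 1.08 (SE 0.314, adjusted p = 0.0138) on the log2 scale. Before the shift between arrays, its processed signals were 143, 117 and 195 in AAV-V, 228, 183 and 170 in AAV-GP73 and 170, 243 and 172 in AAV-V HFD. The unshifted signal thus overlapped between the groups, and the fall was one relative to the other detected probes, whose median signal was higher on those arrays. The call was lost without AAV-GP73 replicate 3 (0.96 lower, under the fold threshold) and, for AAV-V HFD, without AAV-V replicate 3 (0.94 lower) or AAV-V HFD replicate 1 (0.84 lower). The AAV-V HFD call was also lost with the t-test of the study's methods after adjustment.

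Calr encodes calreticulin, a calcium-binding lectin chaperone of glycoproteins. Its probe (chr8:87366192-87366251 of mm9, minus strand) was detected on 2 AAV-V, 2 AAV-GP73 and 3 AAV-V HFD arrays. It measured 4.58, 4.23 and 4.03 in AAV-V, 4.07, 2.80 and 3.11 in AAV-GP73 and 3.69, 4.75 and 4.19 in AAV-V HFD. AAV-GP73 overlapped AAV-V through its replicate 1, and the difference of -0.95 (SE 0.380, adjusted p = 0.0472) stayed under the fold threshold. It was called without AAV-GP73 replicate 1 (-1.32, adjusted p = 0.0113) and with arrays levelled at the median of the detected probes (-1.07, adjusted p = 0.0285). AAV-V HFD differed from AAV-V by -0.07 (SE 0.380, adjusted p = 0.885). Pdia4, a protein disulfide isomerase of the ER, had 1 probe (chr6:47746516-47746575) with processed signals of 2.01 to 9.66, not well above background on any array.

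Herpud1 encodes HERP, an ER membrane protein of the ERAD complex. Its probe 2 (chr8:96919117-96919176 of mm9, transcript base 1729) measured 3.40, 2.87 and 3.09 in AAV-V, where no array was well above background, 3.15, 3.62 and 4.43 in AAV-GP73 and 4.02, 4.61 and 4.17 in AAV-V HFD. All AAV-V HFD values lay above all AAV-V values, as did those of 34.6% of all probes. The Herpud1 signal was at least 1.33-fold higher. This bound sets the undetected arrays to the lowest signal well above background or to their own value if higher. The adjusted p of 0.016, as with all bounds below, is that of the fitted difference and not of the bound. Without AAV-V HFD replicate 2 the adjusted p was 0.066. AAV-GP73 overlapped AAV-V through replicate 1, and the difference was not called (adjusted p = 0.139) and allowed no bound. Probe 1 of Herpud1, nearer the 5′ end at transcript base 1187, was detected on 0 of 9 arrays. Dnajb9, a BiP cochaperone known as ERdj4 and a target of XBP1, had 2 probes with processed signals of 1.55 to 6.11, not well above background on any array.

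Xbp1 encodes the transcription factor activated by IRE1. Its probe 3 (chr11:5425816-5425875 of mm9, transcript base 2066) was detected on all 9 arrays and measured 6.20, 5.11 and 4.57 in AAV-V, 5.68, 5.29 and 5.21 in AAV-GP73 and 5.79, 5.56 and 5.60 in AAV-V HFD. The AAV-V arrays spanned the values of both other groups, and the differences were 0.09 (SE 0.375, adjusted p = 0.837) and 0.35 (SE 0.375, adjusted p = 0.449). The probe does not tell spliced from unspliced mRNA. Probes 1 and 2, at bases 1119 and 1220, were detected on 0 of 9 arrays. Over the whole array there were 501 pairs of probes of 1 transcript in which 1 probe was detected on all 9 arrays and the other on none, and the detected probe lay nearer the 3′ end in 51.5% of them.

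Atf4 encodes the transcription factor of the PERK arm and of the integrated stress response, the shared program of kinases that phosphorylate eIF2α. Its probe 2 (chr15:80087902-80087961 of mm9, transcript base 1655) measured 6.09, 5.13 and 3.32 in AAV-V, 6.75, 6.79 and 6.74 in AAV-GP73 and 7.17, 6.72 and 6.65 in AAV-V HFD. AAV-V replicate 3 was not well above background. All values of both other groups lay above all AAV-V values, as for 45.7% (AAV-GP73) and 34.6% (AAV-V HFD) of all probes. The differences of Atf4 were 1.91 (SE 0.535, adjusted p = 0.00904) and 2.00 (SE 0.535, adjusted p = 0.00921). Without AAV-V replicate 3 the differences were smaller, at 1.15 (adjusted p = 0.0164) and 1.24 (adjusted p = 0.0165), and still called. Neither passed the methods' t-test, which pools no spread across probes. The spread was in AAV-V, whose SD was 1.41 against 0.026 with GP73 and 0.282 on the high-fat diet. Processed signals before the shift were 33.9, 16.3 and 5.45 in AAV-V, 143, 151 and 182 in AAV-GP73 and 244, 158 and 102 in AAV-V HFD. The groups did not overlap on that scale either. That scale, however, still holds the dimness of the AAV-V arrays over all detected probes, so that this separation is no second sign of a rise. Probe 1 of Atf4, at base 832, was detected on 0 of 9 arrays and disagreed with probe 2 in this.

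Ddit3 encodes CHOP, the transcription factor of prolonged ER stress, and Trib3 a pseudokinase that CHOP and ATF4 raise. Both probes of Ddit3 gave processed signals of 1.56 to 3.87 and did not exceed background by the software's limit on any array. The Trib3 probe (chr2:152163161-152163220 of mm9) was well above background on AAV-V HFD replicate 2 alone, at a processed signal of 13.3, and was not tested. At this signal neither presence nor absence of a change in these mRNAs could be measured.

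AAV-GP73 and AAV-V HFD livers, compared directly, differed in 0 of 8 probes by limma, and 1 probe, that of Calr, had an unadjusted p under 0.05 (difference -0.88, SE 0.380, adjusted p = 0.278). Of all probes, 2.67% were called and 16.2% had such an unadjusted p. The difference between AAV-GP73 and AAV-V HFD was -0.09 (SE 0.535) for Atf4, -0.09 (SE 0.314) for Hsp90b1 and -0.54 (SE 0.347, adjusted p = 0.489) for Herpud1. The call of Herpud1 in AAV-V HFD and not in AAV-GP73 was therefore not shown to be a difference between them. Slide and slide column differed along with this comparison too.

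**Figure D3:**
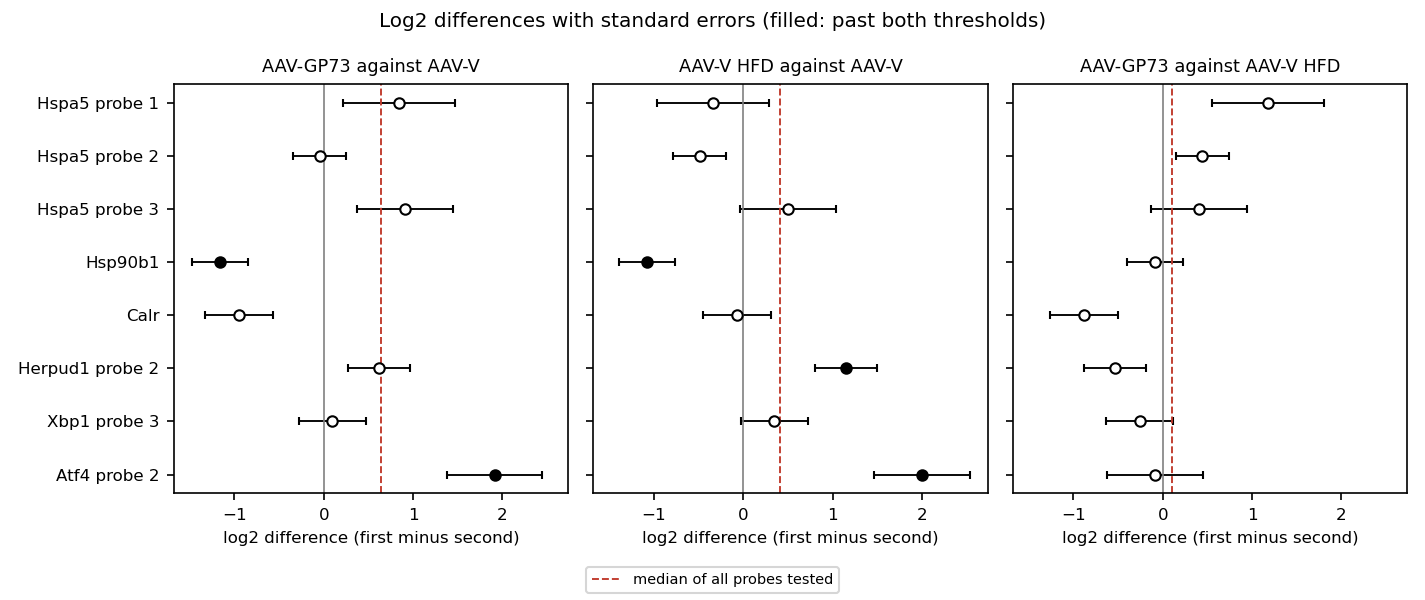
Log2 differences of the 8 probes (points) with their SE (bars) in the 3 comparisons. Filled points passed both thresholds, the solid line is 0 and the dashed line is the median of all 6593 probes tested. Atf4 lies to the right and Hsp90b1 to the left in both comparisons with AAV-V, and no point is filled between AAV-GP73 and AAV-V HFD. Herpud1, undetected in AAV-V, is drawn at its fitted value.

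The level set for the dim AAV-V arrays decided several directions. Of all probes called in AAV-GP73 against AAV-V, 65.4% were higher, but 89.5% when arrays were set by the 75th percentile of all probes, 98.2% by the spike-in controls and 17.0% after normexp background correction with an offset. In AAV-V HFD the same shares were 59.6%, 93.9%, 98.2% and 8.28%. Atf4 was higher in both groups under all of these, but after normexp by 0.31 (adjusted p = 0.171) and 0.39 (adjusted p = 0.080) and no longer called. Hsp90b1 fell by 0.27 (adjusted p = 0.439) in AAV-GP73 with the 75th percentile of all probes, where it was no longer called, and was 0.52 higher, uncalled, with spike-in scaling. On the high-fat diet Hsp90b1 gave -0.21 and 0.26 under the same settings, again uncalled, and -0.99 with quantile normalization, just under the fold threshold. Herpud1, undetected in AAV-V, was called higher in AAV-GP73 with the 75th percentile of all probes and with spike-in scaling, and after normexp the sign of its fitted difference turned in both comparisons. Relative to the median of all probes tested, which does not move with a shift of whole arrays, Atf4 stood 1.28 above the median in AAV-GP73 and 1.59 above it in AAV-V HFD. Hsp90b1 stood at -1.80 and -1.48 and Calr at -1.59 and -0.48 relative to it. That median depends on the filter, since 39.7% of all probes tested were undetected throughout AAV-V. Probes detected on all 9 arrays, as that of Hsp90b1 was, had lower median differences of -0.11 and -0.26. After normexp, which is no shift of whole arrays, the values relative to the median of all probes became 0.89 and 1.13 for Atf4, -0.27 and -0.04 for Hsp90b1 and -0.23 and 0.01 for Calr.

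**Figure D4:**
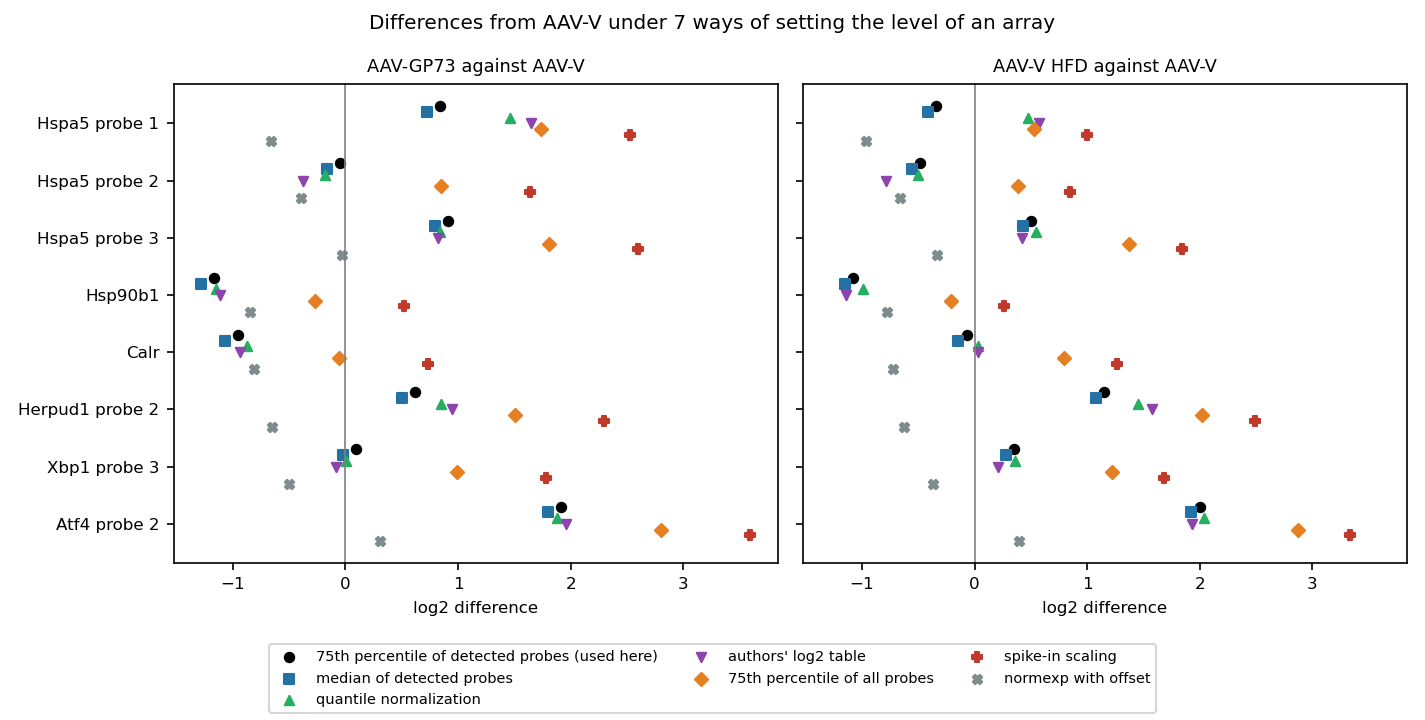
Log2 differences from AAV-V of the 8 probes under 7 ways of setting the level of an array, the setting used here being the black circle. Atf4 lies to the right of 0 under all 7 in both comparisons, and Hsp90b1 crosses 0 with spike-in scaling alone.

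Of 7 ER stress sensors and their activating proteases on the arrays, namely Ern1, Eif2ak3, Atf6, Atf6b, Creb3l3, Mbtps1 and Mbtps2, only Creb3l3 was tested. Creb3l3 encodes CREBH, a liver transcription factor anchored in the ER membrane and cleaved like ATF6. It measured 2.59, 2.51 and 1.61 in AAV-V, with no array well above background, 5.73, 5.78 and 5.79 in AAV-GP73 and 4.74, 5.03 and 4.46 in AAV-V HFD. Against AAV-V its signal was at least 3.76-fold higher with GP73 (adjusted p = 2.4e-05) and at least 1.85-fold higher on the high-fat diet (adjusted p = 0.000288). The groups did not overlap, but 45.7% (AAV-GP73) and 34.6% (AAV-V HFD) of all probes lay wholly above AAV-V. AAV-GP73 lay wholly above AAV-V HFD for 15.8% of all probes. For Creb3l3, AAV-GP73 against AAV-V HFD gave a difference of 1.02 (SE 0.312, adjusted p = 0.116). After normexp Creb3l3 was called in neither comparison with AAV-V.

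Genes of the integrated stress response and ATF4-CHOP targets were called higher in 8 of 10 tested probes (7 of 9 genes) in AAV-GP73, and 7 of 10 probes were higher in AAV-V HFD, with 1 probe lower in each, and the list held 30 genes on the arrays. The share of all probes called higher was 33.9% and 25.0%. Of the 10 probes, 6 had no AAV-V array above background, and such probes entered the test only through the other groups. This held for 39.7% of all probes tested, of which 1504 of 2620 were called higher in AAV-GP73, against 5 of these 6. The median difference of the 10 probes, 1.79 and 1.42, is therefore largely one of fitted values and no bound. Of the 3 probes detected on all 9 arrays, those of Atf5 were called higher and that of Slc3a2 lower. Both probes of Atf5, a transcription factor related to ATF4 and abundant in liver, were detected on all 9 arrays. Atf5 probe 2 measured 6.25, 6.70 and 6.12 in AAV-V, 9.30, 9.34 and 9.62 in AAV-GP73 and 8.67, 8.84 and 8.79 in AAV-V HFD, groups that did not overlap. The difference from AAV-V was 3.06 (SE 0.264, adjusted p = 1.9e-05) in AAV-GP73 and 2.41 (SE 0.264, adjusted p = 0.000195) in AAV-V HFD, and probe 1 gave 3.04 and 2.35. Both probes were called higher in both groups under every alternative that tested them, 22 for probe 1 and 23 for probe 2. Cth, which makes cysteine from cystathionine, rose at least 3.80-fold with GP73 (adjusted p = 0.00196), and Eif4ebp1, an inhibitor of cap-dependent translation, at least 1.02-fold (adjusted p = 0.000183). The 1 lower gene was Slc3a2, the heavy chain of amino acid transporters, at -1.20 (SE 0.241, adjusted p = 0.00133), which became 0.49 with spike-in scaling. Its processed signals before the shift were 709, 646 and 732 in AAV-V and 837, 886 and 912 in AAV-GP73. With other scalings 7 or 8 of 9 genes were higher in AAV-GP73, and 1 after normexp, where 1947 to 5129 and 152 of all 6593 probes were higher.

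Other ER chaperones and folding enzymes had calls in both directions. Of 15 tested probes (14 of 26 genes on the arrays), AAV-GP73 had 2 higher and 2 lower, as did AAV-V HFD, and the median difference was 0.32 and 0.42. Erp29, an ER folding factor, was 1.16 (SE 0.404, adjusted p = 0.0269) higher in AAV-GP73. Creld2, a secreted ER stress gene that was not detected on any AAV-V array, entered the test only through AAV-GP73. It was called higher by its fitted values (adjusted p = 0.025), as were 1504 of 2620 probes undetected throughout AAV-V. With no bound on the fold, a rise of Creld2 was not measured. Pdia5, a disulfide isomerase, was at -1.87 (SE 0.302, adjusted p = 0.00037), and Dnajc3, the BiP cochaperone P58IPK, at -1.36 (SE 0.325, adjusted p = 0.0038). Before the shift, the processed signals of both overlapped between AAV-V and AAV-GP73. They were 31.8, 30.5 and 50.9 against 33.6, 31.5 and 23.2 for Pdia5. For Dnajc3 they were 11.6, 10.3 and 7.23, the last not well above background, against 9.3, 10.6 and 12.8. With the 75th percentile of all probes the count in AAV-GP73 became 7 genes higher and 0 lower, and with spike-in scaling 12 higher and 0 lower. Of all 6593 probes, 4228 and 5129 were called higher under these 2 settings. The call of Erp29 was lost without AAV-V replicate 3 and without each AAV-GP73 array in turn, and that of Creld2 without AAV-V replicate 2 or 3 or AAV-GP73 replicate 1, with adjusted p values of 0.0523 to 0.114 for the pair.

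ERAD and ER translocation genes had 22 probes tested (18 of 31 genes), with 2 called higher and 2 lower against AAV-V in AAV-GP73 livers, 2 higher and 1 lower on the high-fat diet, and median differences of 0.09 and 0.36. Vcp, the ATPase that extracts ERAD substrates, was called higher in AAV-GP73 (adjusted p = 0.00119) but was well above background on 1 AAV-V array only, so that its size is not given. Ube2j1, a ubiquitin-conjugating enzyme of ERAD, was detected on no AAV-V array and entered the test only through the other groups. It was called higher by its fitted values (adjusted p = 0.00141), as were 1504 of 2620 such probes. With no bound on the fold, a rise of Ube2j1 was not measured. The lower probes belonged to Sec61b, a subunit of the translocation channel (-1.16, SE 0.269, adjusted p = 0.00309), and Ssr3, of the translocon-associated complex (-1.30, SE 0.401, adjusted p = 0.015), and the other probe of each gave -0.07 and 0.68. Before the shift, the signals of both called probes overlapped between AAV-V and AAV-GP73. The Ssr3 call was lost without AAV-V replicate 1 (-0.93) or AAV-GP73 replicate 2 (-0.94) and the Sec61b call without AAV-GP73 replicate 3 (-0.98). The number of genes higher rose to 11 with the 75th percentile of all probes and to 16 with spike-in scaling, with 0 lower. Beside them, 4228 and 5129 of all 6593 probes were called higher. Srpr, the receptor of the signal recognition particle and the 1 gene of these lists called in AAV-GP73 against AAV-V HFD (1.30 higher, SE 0.306, adjusted p = 0.0473), is named because of that value. Its call was lost under 14 of 23 alternatives, among them without any 1 of 7 arrays.

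Heat shock proteins of the cytosol and mitochondria, a stress program separate from the ER, were called higher in 12 of 21 tested probes (10 of 13 genes) and lower in 0 in AAV-GP73, and in 6 and 2 probes in AAV-V HFD, where 33.9% and 25.0% of all probes were higher. Hspa4, a cochaperone of the Hsp110 type, was at least 2.51-fold higher by its brighter-group bound (adjusted p = 0.00127), the mitochondrial chaperone Hspa9 at least 4.03-fold (adjusted p = 0.00036) and the small heat shock protein Hspb8 at least 1.34-fold (adjusted p = 0.00263). The probes of Hspa9 disagreed, the other one being at -0.91 (SE 0.265, adjusted p = 0.0113). A further probe of Hspa4, detected on 1 AAV-V array, was called higher (adjusted p = 0.048), and this call was lost without any 1 of 8 arrays. In AAV-V, 8 of the 21 probes were detected nowhere, and 6 of these were called higher in AAV-GP73, beside 1504 of 2620 such probes in all. Of the 8 probes detected on all 9 arrays, 2 were called higher, beside 423 of 2667, and their median difference was 0.30, against -0.11 for all such probes. The count of genes higher in AAV-GP73 was 8 to 13 under the other scalings and 0 after normexp, where 1947 to 5129 and 152 of all 6593 probes were higher.

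**Figure D5:**
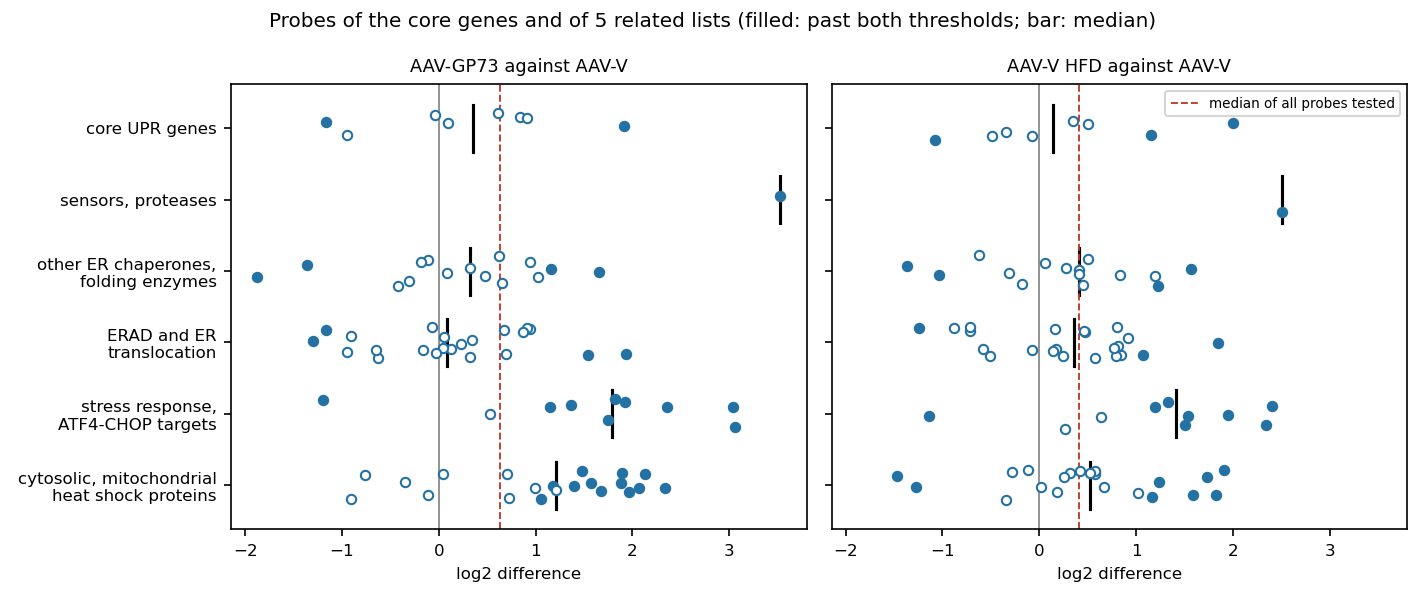
Log2 differences from AAV-V of each tested probe of the core genes described here and of 5 related lists, with the list median as a black bar and the median of all probes tested as a dashed line. Filled points passed both thresholds, and values of probes undetected in AAV-V are fitted values and no bounds. The stress response list lies mostly to the right of the dashed line in both panels, and the ER chaperone and ERAD lists lie on both sides of it.

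Cell type markers were measured beside these results. The summed scaled signal of the 9 hepatocyte markers was 16250 to 25879 in AAV-V, 16489 to 21310 in AAV-GP73 and 10489 to 15424 in AAV-V HFD, wholly lower on the high-fat diet. The stellate cell and fibroblast sum was also lower there, at 86.4 to 139 against 157 to 283 in AAV-V and 171 to 206 in AAV-GP73. The endothelial sum was 11.5 to 25.8 there, against 26.7 to 35.6 and 28.3 to 41.4. Of the 6 endothelial markers, 5 were undetected throughout AAV-V, 3 throughout AAV-GP73 and 4 throughout AAV-V HFD. For the 8 stellate cell and fibroblast markers the counts were 6, 2 and 4. Undetected probes could stand higher on the AAV-V arrays after the shift. Dnajb9 probe 1 had a scaled signal of 3.35 to 3.78 there and 1.03 to 1.79 in AAV-V HFD. How much of the endothelial difference from AAV-V was such signal was not tested. The summed scaled signal of the 7 erythroid genes was 401 to 992 in AAV-V, 3432 to 17430 in AAV-GP73 and 658 to 1145 in AAV-V HFD, and its part in the differences of AAV-GP73 was not tested. Summed macrophage and Kupffer cell markers were 85.8 to 110 in AAV-V, 145 to 175 in AAV-GP73 and 148 to 175 in AAV-V HFD, and 4 of the 7 were detected on all arrays of each of the latter groups against 1 in AAV-V. Of 7 B and plasma cell markers, whose cells are rich in Xbp1 and ER chaperones, 6 were undetected on every array, and the sum was 72.3 to 127 in AAV-V, 45.1 to 73.5 in AAV-GP73 and 48.3 to 79.7 in AAV-V HFD. The T cell and neutrophil sum was 1792 to 3481 in AAV-V, above 373 to 905 in AAV-GP73 and 809 to 1444 in AAV-V HFD. Of its 8 markers, however, 6 were undetected throughout AAV-V and only 1 was detected on all AAV-V arrays. Among the 6 endothelial and 8 stellate cell and fibroblast markers, 1 and 3 were detected on all AAV-GP73 arrays, and among the 5 cholangiocyte markers 0 were. The parts of these cells in the results were not tested.

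Within a group, the probes shared a high array. AAV-V replicate 1 was the highest AAV-V array for 7 of 8 probes, against 33.2% of all probes tested, and AAV-GP73 replicate 1 was the highest of its group for 6 of 8, against 36.6%. In AAV-V HFD, replicate 2 was the highest for 5 of 8, against 31.9%. These counts include the 3 probes of Hspa5, which share a transcript, and are given without a test.

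Across the 9 arrays, among the 2667 probes detected on all of them, the gene names whose levels ran most like a probe differed between the members. Hspa5 probe 2 ran closest to Serpinf1 (Pearson r = 0.904), the thyroxine carrier Ttr (0.899) and antithrombin, Serpinc1 (0.875). Hspa5 probe 3 ran closest to the plasma proteins Pzp (0.881), Cfi (0.880) and Hpx (0.876). Xbp1 probe 3 ran closest to the ribosomal protein gene Rps18 (0.938), to the array feature NAP060056-1 (0.916) and to the elongation factor gene Eef1b2 (0.896). Hsp90b1 ran closest to Plcb1 (0.990), E130116L18Rik (0.989) and Syt10 (0.985), and 9.71% of all these probes had an r over 0.9 with it, against 0.0375% to 0.112% for the other probes. These correlations run over 9 arrays of 3 groups and contain the group differences and the shift between arrays, and they are given as a description.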

How the data were processed

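Total RNA of liver was labelled with Cy3 and hybridized to 9 arrays. The authors deposited intensity values from Feature Extraction, 12.0.3.1 per the file headers and 10.7 per the submitters' processing notes, which also name limma. Background and spatial trend had been removed array by array, without putting the arrays on 1 scale. How the authors made their table of log2 values, 1 per probe name, is not given in the sources used here. Their column medians were 0.799 to 0.801, so that they are scaled between arrays, and they served as an alternative. Probe coordinates and gene names are those of the files (mm9).

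R (4.3.3), limma (3.58.1) and the package data.table, version 1.17.8, were used. Unflagged spots of a probe name were averaged, and arrays were shifted as described since at most 18.4% of spots had signal above background. The 3 groups were fitted together with lmFit and eBayes, with Benjamini-Hochberg adjustment over 6593 probes (5780 gene names). Each array had 98 to 151 flagged spots, none of them of these genes, and 0 saturated spots. The number of arrays limits the precision. An exact permutation test of 3 against 3 arrays cannot go below p = 0.1, so none was used. The genes and lists were chosen with earlier results of these data known. All probes of the 10 genes are given. From the other lists, every tested sensor and up to 3 called genes furthest above and below in AAV-GP73 against AAV-V are named, and for each probe detected on all arrays the 3 gene names most correlated with it. Steps were tested on simulated data. Same-numbered samples had residual correlations of -0.105 to 0.167 between groups, 2 of 9 over 0.1, and were not treated as pairs. The alternatives were 4 other scalings, the authors' table, normexp (offset 50), other filters on dim probes, the brightest probe per gene, fits of 2 groups, eBayes with trend and robust, the methods' t-test, a replicate block and leaving out each array.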

Additional observations from a re-analysis of the deposited data

How the results depend on the processing

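Of 534 values of the 8 probes under the 23 alternatives, 461 kept direction and call, and of 556 values of the named genes of other lists, 470 did. The replicate block changed no call of the 8 probes (2, 3 and 0 probes called), which shared only a number and no known pairing; it gave 3412, 2780 and 124 calls over all probes, and each array lay closest to its own number in 3 of 9 cases. The cause of the changes below was not tested, except that an offset of 50 shrinks dim signals and that fewer probes are tested under stricter filters.

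Member probes called in AAV-GP73 against AAV-V numbered 4 with the 75th percentile of all probes, 6 with spike-in scaling, 0 with normexp, 6 of 18 without a filter, 1 of 4 when detected on all 9 arrays, and 1 with the methods' t-test, unadjusted or adjusted (Atf4 being lost, unadjusted p = 0.0783). In AAV-V HFD they numbered 5 with spike-in scaling, 0 with normexp, 8 of 18 without a filter and 1 of 4 on all 9 arrays. The adjusted t-test left 1, with Hsp90b1 and Atf4 being lost (unadjusted p = 0.0734 for Atf4). Leaving out 1 array gave 1 to 4, 2 to 3 and 0 to 0 calls in AAV-GP73, AAV-V HFD and the direct comparison, and 3097 to 3515, 2401 to 2980 and 38 to 191 over all probes. Over all probes, AAV-GP73 had 4726 calls with the 75th percentile of all probes and 3097 and 2720 with the unadjusted and adjusted t-test. Further calls over all probes in AAV-GP73 numbered 5222 with spike-in scaling, 893 with normexp, 47085 of 56605 without a filter and 1250 on all 9 arrays, and in AAV-V HFD 4513, 966, 45130, 1086 and 1696 with the adjusted t-test. In the direct comparison they numbered 48 with quantile normalization, 393 with spike-in scaling, 27 with the authors' table, 49 with normexp, 78 without a filter, 71 on all 9 arrays, 389 with the unadjusted and 13 with the adjusted t-test.

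Signs turned as follows, where values of probes undetected in AAV-V are fitted and no bounds. With the 75th percentile of all probes, in AAV-V HFD, Calr became 0.80, Hspa5 probe 1 0.53 and probe 2 0.38, and in AAV-GP73 Hspa5 probe 2 0.85. With spike-in scaling, in AAV-GP73, Calr became 0.73, Hsp90b1 0.52, Hspa5 probe 2 1.64, Dnajc3 0.33, Sec61b 0.52, Slc3a2 0.49 and Ssr3 0.39, and in AAV-V HFD Calr 1.26, Hsp90b1 0.26, Hspa5 probe 1 1.00, probe 2 0.85 and Slc3a2 0.20. With normexp, in AAV-GP73, Herpud1 became -0.65, Hspa5 probe 1 -0.66, probe 3 -0.03, Xbp1 -0.50, Creld2 -0.58, Eif4ebp1 -0.54, Erp29 -0.37, Hspa4 -0.04 and -0.41, Hspb8 -0.35, Ube2j1 -0.56 and Vcp -0.13, and in AAV-V HFD Herpud1 -0.63, Hspa5 probe 3 -0.33, Xbp1 -0.37, Creb3l3 -0.29, Cth -0.65 and Eif4ebp1 -0.63. Quantile normalization gave 0.03 for Calr and 0.47 for Hspa5 probe 1 in AAV-V HFD. The authors' table gave 0.03 and 0.57 for these, and -0.09 for Xbp1 in AAV-GP73, and the median of detected probes gave -0.02 for the latter. In the direct comparison, Atf4 became 0.26 and 0.03 and Hsp90b1 0.26 and 0.03 with spike-in scaling and the authors' table, and Xbp1 0.09 with spike-in scaling.

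Leaving out 1 array turned the sign of values near 0. The ranges were -0.19 to 0.08 for Atf4, -0.32 to 0.11 for Hsp90b1 and -0.01 to 0.67 for Hspa5 probe 3 in the direct comparison, -0.22 to 0.13 for Hspa5 probe 2 and -0.27 to 0.55 for Xbp1 in AAV-GP73, and -0.34 to 0.19 for Calr, -0.79 to 0.50 for Hspa5 probe 1 and -0.01 to 0.80 for Xbp1 in AAV-V HFD. Dim signal limits all results with AAV-V, where 10 of the 18 probes could not be tested.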
